A study of Mus musculus with 4 samples.

Results

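The measurements concern 36 genes that encode proteins of the lysosome, chosen as a named list of cathepsins and other proteases, glycan-degrading hydrolases, lipid-handling proteins, membrane proteins and regulators. Rows were found for 35 of the 36 among the 22558 genes of the deposited table, and Tfeb, the transcription factor that drives lysosome formation, was not analysed here. The RNA came from eyes of 6-week-old mice of the genotype Abca4-/-Rdh8-/-. Control eyes had no light, and the eyes of the other groups were taken 3 h, 24 h or 7 days after it, at a light strength not given here. The labels describe 3 mice per condition, and 1 FPKM value per gene and condition was deposited, so no difference below has a replicate check, and no test or p-value is given. All groups, the control included, lack both genes: Abca4, a photoreceptor transporter of retinaldehyde, and Rdh8, a photoreceptor retinol dehydrogenase. What the light does in eyes that have both genes was not part of the comparison.

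Lysosomes are acidic compartments in which proteases, glycosidases, lipases and sulfatases break down proteins, glycans and lipids that arrive by endocytosis, phagocytosis and autophagy. In the eye the pigment epithelium takes up shed outer segment discs each day and degrades them in lysosomes, and microglia and macrophages degrade cell debris in the same way. Mice without Abca4 and Rdh8 clear all-trans-retinal slowly, and bisretinoid lipofuscin accumulates in the lysosomes of their pigment epithelium. TFEB and its relatives bind E-box sequences in the promoters of many lysosomal genes.

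All values are FPKM (fragments per kilobase of transcript, scaled for the depth of the sample), which allow levels to be compared between genes per length. How the libraries were scaled was not stated. A log2 change is the difference between 2 samples in log2 of FPKM after adding 1, and a fold is a plain ratio of FPKM. Pigment epithelium transcripts were present in every sample, with Rgr at 292 FPKM in the control, and so were lens transcripts, with Cryaa at 25471 FPKM. These are tissues of the whole eye, and in such samples fewer cells of a type and less RNA per cell cannot be told apart. The Y-linked gene Ddx3y was at 6.59 FPKM at 7 days and at most 0.00528 in the other samples, so male tissue was present in the 7-day sample and next to none in the others. Xist, which female cells transcribe from the inactive X chromosome, was at 47.2, 53.8, 53.8 and 37.1 FPKM in the control and at the 3 times, so the 7-day sample held tissue of both sexes. At 7 days the effects of time and of the mix of sexes cannot be told apart. An approximate depth was read from olfactory receptor genes seen in a single sample. It treats each member as being as long as those genes, since transcript lengths were not used. Numbers of fragments and counting errors given here are therefore rough. On that scale the lowest member rested on about 82.5 to 159 fragments and the median member on about 720 to 1549, with counting errors of 7.94% to 11.0% and of 2.54% to 3.73%. These errors cover counting alone, not the spread between animals.

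Lysosomal transcripts were nearly level at 3 h, and several proteases were somewhat higher at 24 h and 7 days. The widest difference was that of Ctss, the cysteine protease cathepsin S of antigen-presenting cells, which was 1.99-fold higher at 7 days than in the control. Ctsd, the main aspartic protease of the lysosome, was 1.64-fold higher at 7 days, Ctsz 1.55-fold and Gusb, the beta-glucuronidase gene, 1.49-fold. Cd63, a tetraspanin of late endosomes and lysosomes, was 1.60-fold higher at 24 h. None of the 35 genes reached 1 log2 unit in either direction at any time, against 0.55% of the 14194 genes whose mean FPKM reached 1 that were higher by that much at 3 h, 0.747% at 24 h and 0.409% at 7 days. The shares of all genes lower by that much were 0.24%, 0.359% and 0.19%.

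At a step of 0.5 log2 units, 0 of 35 members were higher at 3 h, 1 at 24 h and 4 at 7 days (11.4%), against 2.56%, 2.71% and 1.19% of all genes. No member was lower by 0.5 at any time, against 1.44%, 2.94% and 0.986% of all genes. The median log2 change of the members was 0.01 at 3 h, 0.05 at 24 h and 0.13 at 7 days, beside 0.02, 0.01 and 0.00 for all genes. Members above 0 numbered 20 of 35, 20 of 35 and 28 of 35 (80.0%), against 54.1%, 51.3% and 50.7% of all genes. The 3 h count and the members' medians at all 3 times depended on scaling. A first rescaling set each sample to the same sum over genes other than those of lens, muscle, blood and surface epithelium, which left 3 of 35 above 0 at 3 h. A second used the protein-coding genes of that sum, which left 10 of 35. The first rescaling shifted the median of all genes to -0.14, -0.05 and -0.09 in order of time. The members' median at 3 h then lay at -0.17, a little below all genes. At 24 h and 7 days the members' median lay at -0.02 and 0.02, above the medians of all genes. Gusb was 0.42 and 0.48 log2 units higher at 7 days under the first and second rescaling, so 3 members passed 0.5 there. At a step of 0.2 log2 units, 3, 10 and 10 members were higher, against 14.8%, 13.9% and 9.6% of all genes, and 2, 0 and 1 lower, against 11.4%, 13.2% and 8.66%. Under the first rescaling the members higher by 0.2 numbered 0, 5 and 5, and under the second 0, 8 and 9. The shares of all genes in this paragraph are from values before rescaling. Both rescalings lowered the median of all genes at each time, so those shares are no background for the rescaled counts. Within 0.2 log2 units lay 30, 25 and 24 members, against 73.8%, 72.8% and 81.7% of all genes. The 3 comparisons with the control share its single value, and are not independent of each other.

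**Figure D1:**
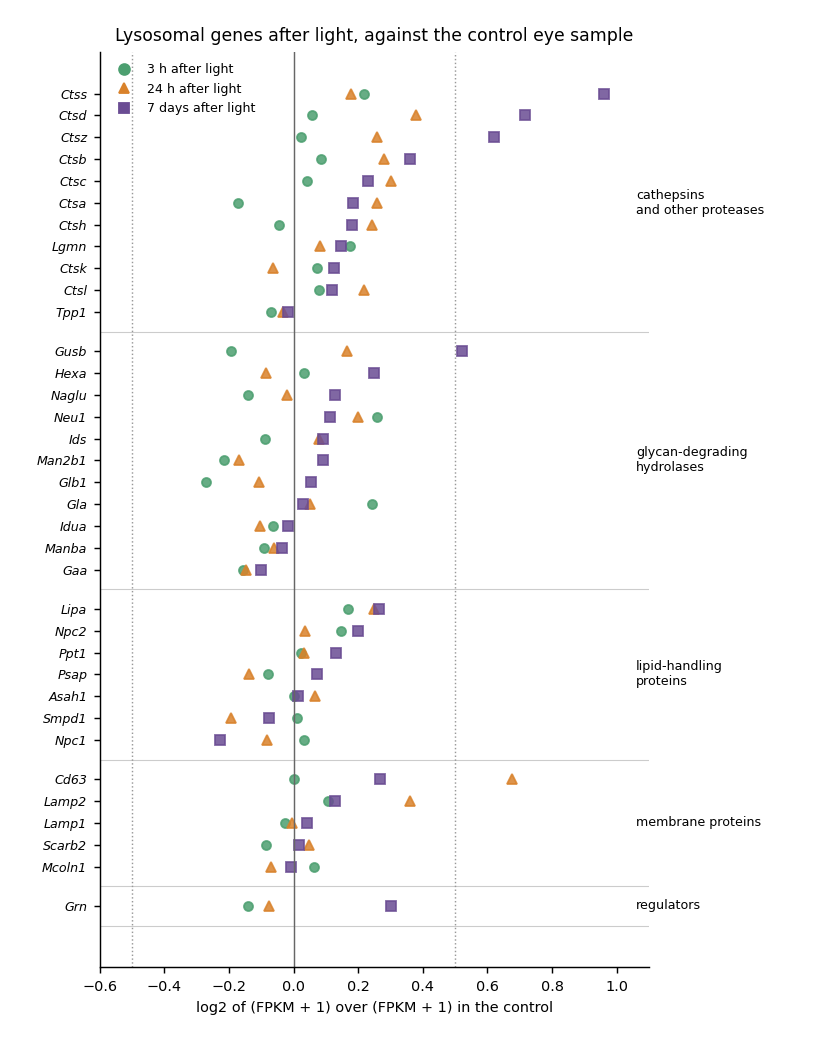
Each row is 1 of the 35 lysosomal genes, grouped by role, and each symbol is its log2 change in FPKM + 1 against the control at 3 h (circles), 24 h (triangles) or 7 days (squares), with 1 deposited value per condition and no error bars. Dotted lines mark 0.5 log2 units in either direction. Ctss, Ctsd, Ctsz and Gusb lie beyond the line at 7 days and Cd63 at 24 h.

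Promoter sequences of 4 members are shown to set 2 of the genes that differed most beside a membrane protein gene that stayed level and the gene that stood out at 24 h. They are RefSeq windows of the GRCm38.p6 build, from 250 bases before to 50 bases after the gene's start, written 5' to 3' on the gene's strand, and capitals mark CACGTG and TCACGTG on either strand. The windows are Ctss on chr3:95526536-95526835 (plus strand), Ctsd on chr7:142387778-142388077 (minus strand), Lamp1 on chr8:13158911-13159210 (plus strand) and Cd63 on chr10:128909095-128909394 (plus strand).
Ctss: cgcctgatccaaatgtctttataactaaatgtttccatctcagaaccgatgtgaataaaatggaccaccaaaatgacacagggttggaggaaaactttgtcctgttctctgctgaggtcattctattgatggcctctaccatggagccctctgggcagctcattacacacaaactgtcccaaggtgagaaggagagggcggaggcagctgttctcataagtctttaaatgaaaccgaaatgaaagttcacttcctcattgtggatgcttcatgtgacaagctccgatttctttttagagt
Ctsd: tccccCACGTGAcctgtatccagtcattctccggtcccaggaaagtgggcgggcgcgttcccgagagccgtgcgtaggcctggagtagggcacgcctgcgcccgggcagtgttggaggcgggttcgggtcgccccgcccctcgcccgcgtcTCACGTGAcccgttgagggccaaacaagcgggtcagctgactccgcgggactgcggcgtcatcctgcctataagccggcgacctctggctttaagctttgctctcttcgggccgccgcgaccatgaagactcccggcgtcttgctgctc
Lamp1: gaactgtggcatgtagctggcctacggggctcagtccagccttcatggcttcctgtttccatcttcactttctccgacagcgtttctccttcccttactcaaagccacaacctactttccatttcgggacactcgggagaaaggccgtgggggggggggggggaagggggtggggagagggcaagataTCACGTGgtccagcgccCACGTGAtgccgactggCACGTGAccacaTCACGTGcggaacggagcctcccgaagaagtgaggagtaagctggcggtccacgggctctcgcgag
Cd63: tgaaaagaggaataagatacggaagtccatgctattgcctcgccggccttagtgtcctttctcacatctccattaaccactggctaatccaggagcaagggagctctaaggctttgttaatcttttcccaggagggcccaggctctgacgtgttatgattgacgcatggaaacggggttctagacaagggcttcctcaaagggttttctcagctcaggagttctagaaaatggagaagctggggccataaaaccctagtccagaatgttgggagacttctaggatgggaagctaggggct

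CACGTG, the palindromic E-box, occurred 4 times in the Lamp1 window, 2 times in that of Ctsd and not in those of Ctss and Cd63. Windows were at hand for 31 of the 35 members, all but Asah1, Ctsb, Ctsh and Npc1. CACGTG was found for 10 of the 31 (32.3%), against 8.09% of all 27025 genes with a window. TCACGTG, which contains CACGTG and was searched on both strands, was found for 9 of the 31 (29.0%), against 4.29% of all genes. These 9 were Ctsa, Ctsd, Lamp1, Lgmn, Gaa, Gla, Glb1, Naglu and Mcoln1, and Ctsl held CACGTG alone. The motif contains a CG pair, and member windows held a median of 12 CG pairs against 7 in all windows, so the background shares are not from windows of like CG content.

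Members with and without the motif were set side by side as a description. The 9 genes with TCACGTG had median log2 changes of -0.03 at 3 h, -0.01 at 24 h and 0.06 at 7 days. The 22 genes without it had medians of 0.02, 0.04 and 0.13. Of the 5 members past 0.5 log2 units, only Ctsd held the motif in its window. Lamp1, with its 4 copies, was within 0.05 log2 units of the control at each time. A match shows these letters and not binding, and no match says only that they are not in this window.

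Proteases made up most of the members that were higher at 24 h. They cut proteins delivered to the lysosome, most of them as cysteine cathepsins. At 24 h, 7 of the 11 protease genes were at least 0.2 log2 units above the control (63.6%), against 13.9% of all genes. Their median was 0.06 at 3 h, 0.24 at 24 h and 0.18 at 7 days. Under the first rescaling these medians were -0.12, 0.18 and 0.08, beside -0.14, -0.05 and -0.09 for all genes. The count at 24 h was then 3 of 11, while the 13.9% of all genes is from values before rescaling. Under the second rescaling the 3 h median was -0.01, beside -0.04 for all genes.

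Ctss was at 19.9, 23.3, 22.6 and 39.6 FPKM without light and after 3 h, 24 h and 7 days. The control, 3 h and 24 h samples lay close together and the 7-day sample stood apart. Its log2 change at 7 days was 0.96, with a counting standard error of about 0.078. From 24 h to 7 days the gene was 1.75-fold higher, a comparison that does not use the control.

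Ctsd was at 355, 369, 461 and 584 FPKM without light and after 3 h, 24 h and 7 days. It was higher in each later sample, with log2 changes of 0.06, 0.38 and 0.72. Psap encodes prosaposin, the precursor of activator proteins for sphingolipid breakdown. It was at 404, 383, 367 and 425 FPKM. Psap thus had the highest level of all members in the control and at 3 h, and Ctsd at 24 h and 7 days. The 3 most abundant members, Psap, Ctsd and Ctsl, held 43.8% of the members' summed FPKM in the control and 46.6% at 7 days.

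Ctsz, a cathepsin that trims single residues from the carboxyl end, was at 45.9, 46.7, 55.1 and 71.1 FPKM without light and after 3 h, 24 h and 7 days. It shared the order of Ctsd, with the control lowest and the 7-day sample highest. Ctsb, a cysteine protease with endopeptidase and dipeptidase action, was at 102, 109, 125 and 132 FPKM. Its log2 changes were 0.09, 0.28 and 0.36, in the same order again but smaller.

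A second set of proteases was highest at 24 h. Ctsc, which activates serine proteases of leukocytes, was at 18.0, 18.6, 22.5 and 21.3 FPKM without light and after 3 h, 24 h and 7 days. Ctsa, a carboxypeptidase that also protects beta-galactosidase and neuraminidase, was at 23.9, 21.1, 28.8 and 27.3 FPKM. Ctsh, an aminopeptidase, was at 34.7, 33.6, 41.2 and 39.5 FPKM. Ctsl, an endopeptidase, was at 222, 234, 258 and 241 FPKM. In these 4 genes the 24 h log2 changes ran from 0.22 to 0.30 and the 7-day changes from 0.12 to 0.23.

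Ctsk, the collagen-degrading protease of osteoclasts and some fibroblasts, was at 25.9, 27.3, 24.8 and 28.4 FPKM without light and after 3 h, 24 h and 7 days. The osteoclast marker Acp5 was at 2.10, 2.80, 2.10 and 3.06 FPKM, but Mmp9, of the same marker list, was at 3.00, 2.27, 2.18 and 2.66. The collagen gene Col1a2 was at 474, 256, 262 and 357 FPKM, whereas Dcn, another fibroblast and matrix gene, was at 768, 760, 728 and 846. Lgmn, which cuts after asparagine, was at 77.1, 87.1, 81.7 and 85.5 FPKM. Tpp1, a tripeptidyl peptidase whose loss causes a neuronal ceroid lipofuscinosis, had log2 changes between -0.07 and -0.02.

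**Figure D2:**
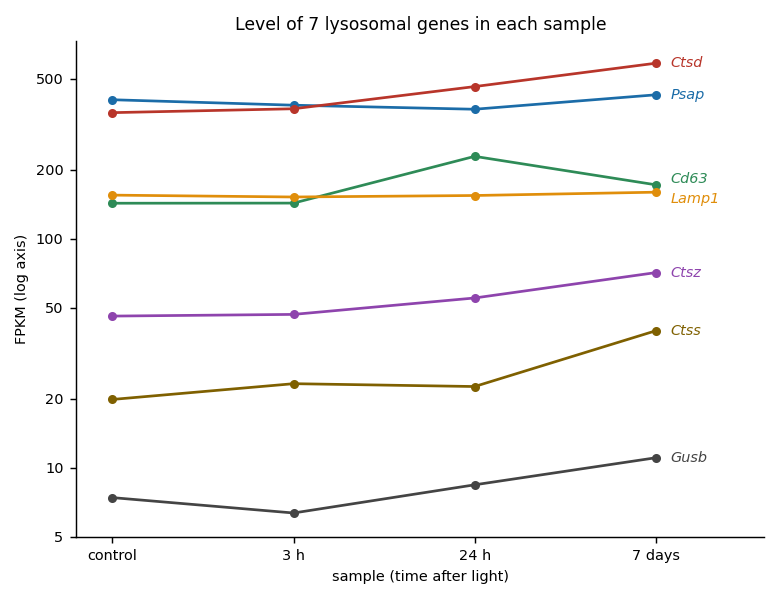
The y axis gives FPKM on a log scale and the x axis the 4 samples, with 1 deposited value per point. Ctsd lies below Psap in the control and at 3 h and above it at 24 h and 7 days. Ctss and Gusb are highest at 7 days, Cd63 peaks at 229 FPKM at 24 h, and Lamp1 stays between 152 and 159.6 FPKM.

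The glycan-degrading hydrolases remove sugars or sulfate from glycoproteins, glycolipids and glycosaminoglycans. Their 11 genes had medians of -0.09 at 3 h, -0.06 at 24 h and 0.09 at 7 days. The last of these was -0.01 under the first rescaling, beside -0.09 for all genes. At 3 h, 7 of the 11 (63.6%) lay within 0.2 log2 units of the control, against 73.8% of all genes, with 2 higher and 2 lower. At 24 h all 11 lay in that band, against 72.8% of all genes. Gusb was at 7.40, 6.34, 8.41 and 11.04 FPKM without light and after 3 h, 24 h and 7 days. Its 7-day value stood above the others, with a log2 change of 0.52 and a counting standard error of about 0.13 from its low level.

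Hexa encodes the alpha subunit of beta-hexosaminidase, which degrades GM2 ganglioside. It was at 47.5, 48.7, 44.8 and 56.6 FPKM without light and after 3 h, 24 h and 7 days. Its log2 change at 7 days was 0.25. The 7-day sample was the highest and the other samples lay close together.

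Neu1, the sialidase, was at 10.4, 12.7, 12.1 and 11.4 FPKM without light and after 3 h, 24 h and 7 days, with its highest value at 3 h. Gla, the alpha-galactosidase gene, was also highest at 3 h, at 7.40 FPKM against 6.10 in the control, a log2 change of 0.24 with a counting standard error of about 0.17. Glb1, the beta-galactosidase gene, and Man2b1, an alpha-mannosidase gene, were lowest at 3 h, with log2 changes of -0.27 and -0.22. The counting standard errors were about 0.16 and 0.13. At 7 days the changes of this pair were 0.06 and 0.09, smaller than counting standard errors of about 0.13 and 0.11. Gaa, which degrades glycogen, was slightly lower throughout, at 44.6 FPKM in the control and 39.9, 40.2 and 41.6 after light. The remaining genes of glycosaminoglycan and mannoside breakdown, Ids, Idua, Naglu and Manba, had log2 changes between -0.14 and 0.13.

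Lipid-handling proteins differed little as a group. The 7 genes had medians of 0.02, 0.03 and 0.07. The first rescaling put every one below 0, with the medians of all genes at -0.14, -0.05 and -0.09. Lipa, the acid lipase that frees cholesterol from its esters, was at 16.4, 18.6, 19.7 and 19.9 FPKM without light and after 3 h, 24 h and 7 days. All 3 light samples were above the control, with log2 changes of 0.17, 0.25 and 0.26. Npc1 and Npc2 pass that cholesterol out of the lysosome. Npc1 was at 15.9, 16.3, 15.0 and 13.4 FPKM and was the only member with its lowest value at 7 days (log2 change -0.23). Npc2 was at 36.5, 40.5, 37.4 and 42.0 FPKM, so the pair lay on opposite sides of the control at 7 days.

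Smpd1, the acid sphingomyelinase, was at 70.9, 71.4, 61.9 and 67.2 FPKM without light and after 3 h, 24 h and 7 days. The 24 h sample was the low one, with a log2 change of -0.19 and a counting standard error of about 0.050. Asah1, the acid ceramidase, had the narrowest range of all 35 members, with a highest value 1.05 times its lowest. Ppt1, a thioesterase that removes fatty acids from proteins, lay between 48.3 and 53.0 FPKM.

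Among the membrane proteins Cd63 stood apart. It was at 143, 143, 229 and 172 FPKM without light and after 3 h, 24 h and 7 days. The 24 h sample was the highest, with log2 changes of 0.68 against the control and 0.67 against 3 h, and the 7-day sample lay between, with 0.27 against the control. At 7 days the gene was at 0.751 of its 24 h level. Lamp2, a heavily glycosylated protein of the lysosomal membrane, was at 83.5, 90.0, 107 and 91.5 FPKM, also highest at 24 h (log2 change 0.36).

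Lamp1, the close relative of Lamp2, was at 155, 152, 154 and 159.6 FPKM without light and after 3 h, 24 h and 7 days. Its 4 values hardly differed. Scarb2, which carries glucocerebrosidase to the lysosome, and Mcoln1, a cation channel of the lysosomal membrane, had log2 changes between -0.09 and 0.06. The group's medians were 0.00, 0.05 and 0.04. The first rescaling put every one below 0, with the medians of all genes at -0.14, -0.05 and -0.09. Grn, which encodes the secreted and lysosomal protein progranulin, was at 38.3, 34.6, 36.3 and 47.5 FPKM. It was slightly below the control at 3 h and 24 h and above it at 7 days (log2 change 0.30).

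Across all roles, 17 of the 35 members had their highest value at 7 days (48.6%) and 1 its lowest (2.86%), against 22.3% and 23.5% of all genes. The control held the lowest value of 15 members (42.9%), against 26.9% of all genes. The ratio of a member's highest to its lowest value had a median of 1.21, beside the 1.19 of all genes. It was under 1.3 for 28 of 35 members (80.0%) and at least 1.5 for 5 (14.3%), against 71.9% and 12.7% of all genes. A mean FPKM of at least 5 was reached by 33 members. Of all genes at that level, 78.7% were under 1.3 and 8.83% at least 1.5, with a median of 1.17. The members' FPKM summed to 2242 in the control and, after light, to 2262, 2499.5 and 2680.4 in order of time. Of the summed FPKM of all genes this was 0.358% in the control and 0.333%, 0.378% and 0.399% after light, so the share was lower at 3 h. Ctsd alone was at 355 FPKM in the control and 584 at 7 days. Lamp2, Gla and Ids lie on the X chromosome, and their log2 changes at 7 days, in the sample with tissue of both sexes, were 0.13, 0.03 and 0.09.

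**Figure D3:**
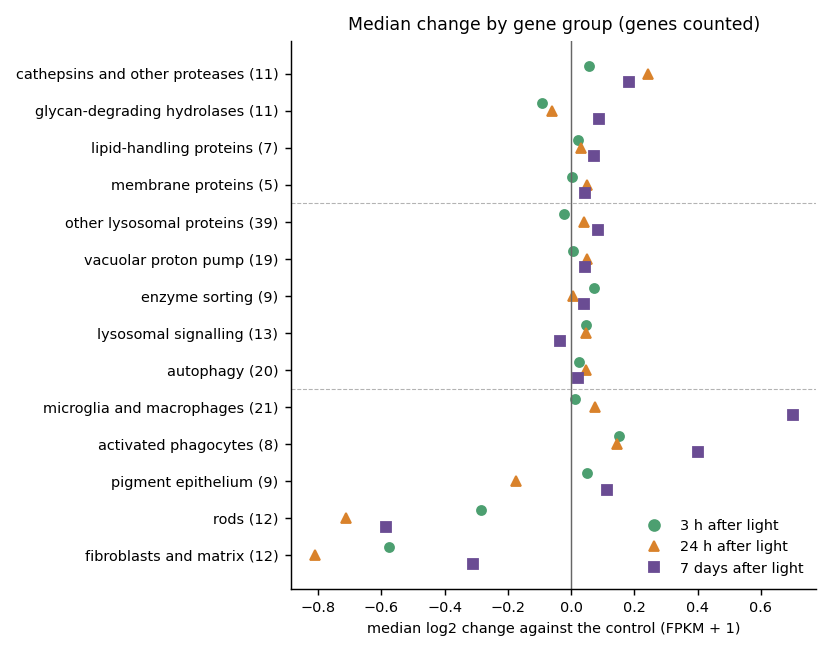
Each symbol is the median log2 change in FPKM + 1 against the control over the genes of a group whose mean FPKM reached 1 (number in brackets), at 3 h (circles), 24 h (triangles) and 7 days (squares). The upper rows are roles among the lysosomal members, the middle rows other genes of the pathway and the lower rows markers of cell types. The 4 roles with several members lie between -0.09 and 0.24, whereas microglia and macrophage genes reach 0.70 at 7 days and rod genes lie at -0.71 at 24 h.

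Other genes of the pathway were taken from lists of 41 further lysosomal proteins, 24 proton pump subunits, 9 genes of enzyme sorting, 18 of lysosomal signalling and 20 of autophagy. The mean FPKM of 39 further lysosomal proteins reached 1. At 3 h, 24 h and 7 days, 0, 1 and 2 of them were higher by 0.5 log2 units. The shares of all genes were 2.56%, 2.71% and 1.19%. None of the 39 was lower by 0.5, against 1.44%, 2.94% and 0.986% of all genes. The 2 higher at 7 days included Cd68, a heavily glycosylated protein of phagocyte lysosomes. Cd68 was at 4.08, 5.51, 6.48 and 12.1 FPKM without light and after 3 h, 24 h and 7 days. It was the only one of the 39 past 1 log2 unit (1.37 at 7 days), against 0.409% of all genes higher by that much then. Laptm4a, the most abundant of this list, was at 256, 252, 263 and 279.7 FPKM.

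None of the 19 vacuolar proton pump genes, which acidify the lysosome, passed 0.5 log2 units at any time, and their medians were 0.01, 0.05 and 0.05. The most abundant, Atp6v0c, was at 397, 388, 427 and 431 FPKM. None of the 9 sorting genes passed 0.5 either, and M6pr, a mannose 6-phosphate receptor, was at 49.4, 52.1, 52.6 and 52.1 FPKM. None of the 20 autophagy genes passed 0.5, with medians of 0.03, 0.05 and 0.02. Of all genes, 2.56%, 2.71% and 1.19% were higher by 0.5 in order of time, and 1.44%, 2.94% and 0.986% lower. With shares this low, a list of such a size can hold none without differing from all genes. In the signalling list 2 of 13 genes were higher by 0.5 at 3 h (15.4%), against the 2.56% of all genes, and none at the later times. Flcn, folliculin, which acts on the Rag GTPases that hold TFEB family factors in the cytoplasm, was at 37.7, 54.3, 43.6 and 33.3 FPKM without light and after 3 h, 24 h and 7 days. Its partner Fnip2 was at 11.1, 17.5, 9.94 and 10.4 FPKM. Both were highest at 3 h, when the lysosomal members themselves were nearly level.

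Cathepsin inhibitors gave 4 of 7 genes whose mean FPKM reached 1. Cst3, cystatin C, a secreted inhibitor of cysteine cathepsins, was at 1126, 1177, 1119.8 and 1342 FPKM without light and after 3 h, 24 h and 7 days. It was far more abundant per length than any cathepsin, and highest at 7 days. Stfa3, a stefin of a family of near-identical genes whose values are therefore uncertain, was at 3.68, 5.97, 6.11 and 5.91 FPKM. Cst7, the leukocystatin of activated myeloid cells, was below the mean FPKM of 1 and was at 0.191, 0.196, 0.234 and 1.81 FPKM, with the 7-day sample alone above 1.

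Markers of microglia and macrophages were also higher in the 7-day sample. Of 21 such genes, 13 were at least 0.5 log2 units higher at 7 days (61.9%) and none lower, against 1.19% and 0.986% of all genes. Their median was 0.70 at 7 days, beside 0.01 at 3 h and 0.08 at 24 h. Their FPKM summed to 195 in the control and to 224, 208 and 392 in the light samples in order of time, and none was at 0 in any sample. Laptm5, a lysosomal protein of blood cells, was 1.89-fold and Lyz2, the macrophage lysozyme, 1.64-fold higher at 7 days. Trem2 and Tyrobp, a receptor and its adaptor, were 4.49-fold and 3.29-fold higher. Ctss had its step between the same samples, from 22.6 to 39.6 FPKM while C1qa was at 24.1 and 53.5. The part of these cells in the 7-day values of Ctss, Ctsd, Ctsz, Gusb and Cd68 was not tested.

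At 24 h, 11 of the 21 myeloid markers lay above 0 (52.4%), near the 51.3% of all genes. None passed 0.5 in either direction, against 2.71% of all genes higher and 2.94% lower. The median of the pigment epithelium genes was -0.17 at that time, with Rpe65 at 80.8 FPKM beside 123 in the control, and 0.11 at 7 days. Their FPKM summed to 1571 in the control and to 1739, 1506 and 1976 after light. Most of the higher sum at 7 days was Ttr, at 710 FPKM in the control and 1077 at 7 days. Of the 9 genes whose mean FPKM reached 1, Ttr was the only 1 higher by 0.5 log2 units at 7 days (11.1%), against 1.19% of all genes. The rod genes' median was -0.71 at 24 h and -0.59 at 7 days. Fibroblast and matrix genes had a median of -0.81 at 24 h, and skeletal muscle genes one of -0.69. The part of these tissue shares in the 24 h values of the proteases and Cd63 was not tested. Among genes of activated phagocytes, Cd9, a tetraspanin like Cd63, was at 127, 145, 187 and 179 FPKM, and Lgals3, which binds damaged lysosomes, at 70.6, 90.0, 103 and 88.1 FPKM. Of the 8 such genes whose mean FPKM reached 1, these 2 and no others were higher by 0.5 log2 units at 24 h. That was 25% of the list, against 2.71% of all genes. The median of the 8 was 0.15 at that time, and 2 lay below 0, down to -0.22 for Lpl.

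**Figure D4:**
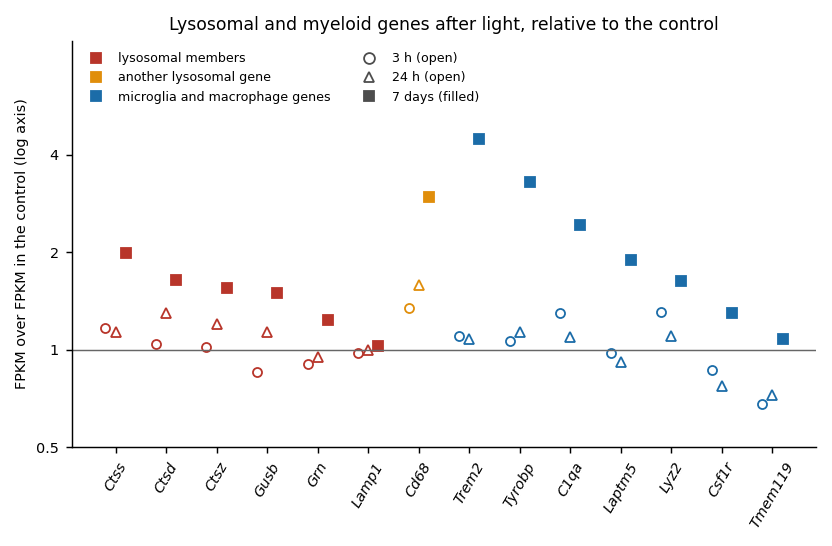
The y axis gives FPKM over FPKM in the control on a log scale, with 1 deposited value per condition, at 3 h (open circles), 24 h (open triangles) and 7 days (filled squares). Lysosomal members are red, Cd68, another lysosomal gene, is orange and microglia and macrophage genes are blue. Ctss at 1.99-fold lies level with Laptm5 at 1.89-fold at 7 days, while Trem2 reaches 4.49-fold and Tmem119 stays at 1.08-fold.

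Comparisons of successive times leave out the control. Both steps use the single 24 h value, so they are not independent of each other. From 3 h to 24 h the members' median was 0.05 log2 units and 23 of 35 lay above 0, against 47.3% of all genes. None reached 1 log2 unit in either direction in these comparisons, against 0.514% higher and 0.437% lower of all genes in the earlier step and 0.296% and 0.514% in the later. Only Cd63 was higher by 0.5 (2 members under the first rescaling), against 1.92% of all genes, and none lower, against 3.09%. Ctsa had the next largest difference, 0.43. From 24 h to 7 days the median was 0.06, with 24 of 35 above 0, against 48.5% of all genes. Ctss was then the only member higher by 0.5 (0.78), against 1.66% of all genes, and none was lower, against 1.97%. Cd63 had the lowest value of that step (-0.41), while Grn (0.38), Ctsz (0.36), Gusb (0.36), Ctsd (0.34) and Hexa (0.33) lay above 0.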

How the data were processed

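RNA from whole eyes was sequenced at 4 conditions. The deposited values are FPKM, made by the authors with TopHat2 and Cuffdiff 2.2.1 on mm9, per the submitters' processing notes, and the series design adds Cufflinks. The tissue is labelled whole eye, although retinas are named in the extraction protocol. The gene annotation, the library scaling and whether a value is a pool or a mean of 3 mice were not stated in those sources. Columns were matched to samples by title, and the control column as the only sample without light.

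Log2 changes used a pseudocount of 1 FPKM. The background was 14194 genes whose mean over the 4 samples reached 1, and all 35 members found passed, 33 of them also at 5 (not Idua and Manba). With 1 value per condition no test was run. Changes of 0.2, 0.5 and 1 log2 unit served as steps for counting. The calculation was checked on simulated data. All members could be named, other pathway genes past 0.5 log2 units or most abundant in their list, and likewise marker genes. Acp5, Csf1r, P2ry12, Rgr, Tmem119 and the sex-linked Ddx3y were chosen after their values were seen. The members, lists and alternatives were chosen with earlier results of these data known. Gene types came from RefSeq on GRCm38.p6, with 22327 of 22558 symbols matched, as did chromosomes and promoter windows, whose coordinates belong to that build and not to the build of the FPKM values. Python 3.11.15 with pandas 2.3.3 was used. Alternatives were another pseudocount, other filters and 3 rescalings; those on single members, roles and counts at 0.2 or above 0 were chosen after seeing the data. The values of 1 gene of the other pathway lists are not reported here.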

Additional observations from a re-analysis of the deposited data

Results flagged for a closer look

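A trio of microglial marker genes lay on opposite sides of the shared control at different times, and these differences were not tested. Csf1r, the colony stimulating factor receptor of macrophages, had log2 changes of -0.34 at 24 h and 0.35 at 7 days. Cx3cr1, the fractalkine receptor, was at -0.52, -0.20 and 0.68 in order of time, and P2ry12, a purine receptor of resting microglia, had -0.47 at 24 h and 0.38 at 7 days. The levels of both were low. P2ry12 was at 1.57, 1.59, 0.864 and 2.36 FPKM without light and after 3 h, 24 h and 7 days. Cx3cr1 was at 3.79, 2.33, 3.16 and 6.66 FPKM. No counting error is given for them, and the added 1 FPKM makes log2 changes at such levels smaller. The median of 3 erythroid genes was 0.20, -0.64 and -0.69 at 3 h, 24 h and 7 days. No lysosomal member had changes of at least 0.2 log2 units in both directions.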

How the results depend on the processing

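No paired analysis was possible because each condition has 1 sample, and for the same reason no replicate could be left out. Of 708 alternative values, 605 stayed within 0.1 log2 units of the reported value, or within 1.5 times a reported count or share, without reversing a median. Rescaling by the median ratio turned the members' median at 3 h to -0.0039 and that of membrane proteins to -0.012. The rescaling to the same sum outside lens, muscle, erythroid and surface epithelium genes moved the most values. It gave members' medians of -0.17, -0.017 and 0.020 in order of time, and 0.15 from 3 h to 24 h. For all genes it gave medians of -0.14, -0.053 and -0.095, and 0.089 from 3 h to 24 h. Members at least 0.5 higher from 3 h to 24 h became 2, members at least 0.2 higher became 0, 5 and 5 in that order, and members above 0 at 3 h became 3. Role medians turned to -0.12 for proteases, -0.15 for lipid-handling and -0.18 for membrane proteins at 3 h, to -0.034 and -0.017 for the latter pair at 24 h, and to -0.013 for glycan-degrading hydrolases, -0.039 for lipid-handling and -0.067 for membrane proteins at 7 days. With protein-coding genes alone in that sum, the members' median at 3 h was -0.058, with 10 members above 0 and 0 at least 0.2 higher. The medians of all genes were -0.044, -0.032 and -0.036 in order of time. Role medians were then -0.012 for proteases, -0.045 for lipid-handling and -0.066 for membrane proteins at 3 h, -0.011 for lipid-handling proteins at 24 h and -0.0014 for membrane proteins at 7 days. The cause was not tested. Among protein-coding genes, those higher by 1 log2 unit made up 0.273%, 0.443% and 0.177% in order of time, and those lower 0.111%, 0.214% and 0.0516%. Ctss, Ctsd, Ctsz and Cd63 kept their side of 0.5 log2 units under every alternative run, at the times named. The planned values for members past 1 log2 unit could not be given because no member reached it. Depth limits the members of low level, such as Gusb, Gla and Manba, and likewise markers such as P2ry12 and Cx3cr1.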
